A study of Sus scrofa with 6 samples.

Results

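The late pregnant sow ovary was compared with the non-pregnant sow ovary, using the 2 arrays of the 6 in the series that carry these tissues. The arrays were taken by their labelled tissue and stage. The study collected ovary and uterine tissue labelled myometrium from late pregnant, early pregnant and non-pregnant sows, and its design text counts 9 pigs, 3 for each of these 3 stages. Each tissue and stage has 1 Affymetrix array of biotin-labelled cRNA made from 6 ug of total RNA, so there are no replicates and no test was made. Late pregnant ovary means the ovary of a late pregnant sow and non-pregnant ovary that of a sow labelled none pregnant, and the labels name no drug or allele for either group. The labels give no breed, age, day of gestation or stage of the oestrous cycle, and the sources used here do not give whether an array's RNA came from a single sow or a pool. Differences between these arrays therefore cannot be told apart from differences between individual sows or, for the non-pregnant array, from the cycle stage of that ovary. A whole ovary is a mixture of cell types, in which fewer cells of a type and less RNA per cell cannot be told apart.

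In the sow, pregnancy depends on progesterone from the corpora lutea, the glands that form from ovulated follicles, throughout gestation. Porcine luteal cells also make and store the peptide hormone relaxin, which is released before farrowing and softens the cervix. Interferons, which the conceptus of the pig and other livestock also secretes around implantation, switch on a common set of antiviral genes in tissues that carry their receptors, among them the MX, OAS and IFIT families.

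Values are MAS5 signals, a linear measure of array brightness that is comparable between arrays for one probe set but not between probe sets. Signals under a floor of 81.7 were raised to it before ratios were taken. A gene was measured where its brightest probe set exceeded the floor on either array, and 5435 named genes were. A gene is called higher or lower here where its signal differed 2-fold or more. A ratio with 1 array under the floor is a bound and is written as "at least".

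Of the 5435 measured genes, 152 (2.8%) passed 2-fold with the late pregnant ovary higher and 182 (3.35%) with it lower. These shares are the background for the counts of called list genes in this comparison. Among 15039 measured probe sets, named or not, 439 (2.92%) were higher and 549 (3.65%) were lower. The median gene had a log2 ratio of -0.06, late pregnant over non-pregnant, and the interquartile range lay between -0.33 and 0.21. Differences of 8-fold or more were few, with 8 genes higher and 8 lower. As a measure of part of the technical spread, the log2 ratio of a probe set had a standard deviation of 0.358 from pairs of probe sets of the same gene. This was taken over 1461 genes with at least 2 measured probe sets. Of 35 higher genes with a further measured probe set, that probe set pointed the same way in 33 and was itself 2-fold higher in 19. For 38 lower genes these counts were 35 and 15. Both probe sets of a pair were read on the same arrays, so this spread leaves out error shared by a whole array. It also holds none of the variation between animals. Of 101 named genes past 2-fold, 59 stayed past it under every setting run for single genes, and the closing section names the others.

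**Figure D1:**
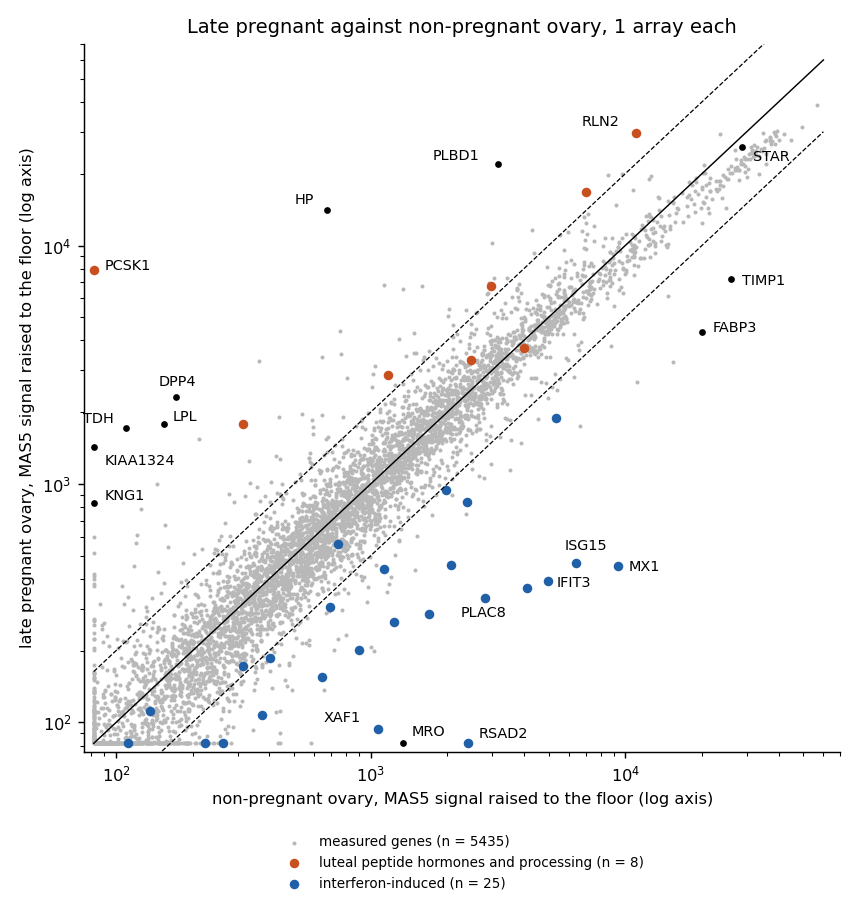
MAS5 signal of each measured gene (points, n = 5435) on the late pregnant ovary array (vertical axis) and the non-pregnant ovary array (horizontal axis), both log axes with signals raised to the floor of 81.7. The solid line marks equal signal and the dashed lines 2-fold; interferon-induced genes (blue) all lie below the line of equality, and 6 of 8 measured luteal peptide genes (orange) lie above the upper dashed line.

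The arrays resembled each other closely and carried ovary. Across 11733 probe sets above the floor on all 6 arrays, log2 signals of the late pregnant and non-pregnant ovaries correlated at Pearson's r = 0.953, a value across probe sets, which are not independent replicates. The 7 luteal markers were all above the floor on both arrays and summed to 107021.5 on the late pregnant and 83255.6 on the non-pregnant array, so luteal marker genes were bright in both ovaries. Follicle markers summed to 17896.0 on the late pregnant and 19659.3 on the non-pregnant array, and oocyte markers to 726.2 on the late pregnant and 1105.7 on the non-pregnant array. Epithelial markers, which would mark oviduct or uterine lining, summed to 588.6 on the late pregnant and 921.8 on the non-pregnant array, against 38053.9 to 41144.7 on the late pregnant and non-pregnant uterine arrays. Both trophoblast markers on the array were under the floor in both ovaries. Hybridisation controls, which are meant to be spiked in equal amounts, were also read. They were at -0.06 on the late pregnant and 0.46 on the non-pregnant ovary array on the log2 scale, relative to the mean of the 6 arrays. Poly-A controls, a second control set, were also brighter on the non-pregnant ovary array. Their geometric mean was 621.9 on the late pregnant and 998.0 on the non-pregnant ovary array. Scaling to the hybridisation controls instead of to the array mean would move the median ratio up by 0.50. The 3' to 5' ratio of the GAPDH control was 1.51 on the late pregnant and 2.33 on the non-pregnant array, and that of actin was 3.22 on the late pregnant and 3.38 on the non-pregnant array.

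Among the secreted hormones of the corpus luteum, the relaxin gene and the machinery of peptide hormone processing were brighter in late pregnancy. RLN2, the relaxin gene, read 29660.1 on the late pregnant and 11028.8 on the non-pregnant array, 2.69-fold higher. PCSK1, a convertase that cuts prohormones at paired basic residues, read 7916.8 in the late pregnant ovary and 65.5, under the floor, in the non-pregnant ovary. That is at least 96.9-fold higher and the largest ratio among all measured genes. PAM, the enzyme that amidates the ends of peptide hormones, read 6765.5 on the late pregnant array against 2968.0 on the non-pregnant array, 2.28-fold higher. INSL3, an insulin-like peptide related to relaxin, read 3722.7 in late pregnancy and 3993.6 in the non-pregnant ovary. Its log2 ratio of -0.10 is inside the spread between probe sets of a gene.

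The other luteal peptide genes were signals to the gland or its vessels. AGT, angiotensinogen, read 1788.9 in the late pregnant and 314.5 in the non-pregnant ovary, 5.69-fold higher. VEGFA, the vascular growth factor, read 2864.6 in the late pregnant and 1172.4 in the non-pregnant ovary, 2.44-fold higher, although its other probe sets gave log2 ratios of 0.22 and 0.67. PTGFR, the receptor through which prostaglandin F2 alpha ends luteal life, read 16721.2 on the late pregnant against 6982.2 on the non-pregnant array, 2.39-fold higher. Its second probe set was also higher, with a log2 ratio of 3.08. LHCGR, the receptor for luteinising hormone, read 3309.5 in late pregnancy and 2479.9 in the non-pregnant ovary, a log2 ratio of 0.42. In all, 6 of the 8 measured luteal peptide genes were called higher and 0 lower, against 2.8% and 3.35% of all genes, and the list median was 1.27. PCSK1 was measured only through the late pregnant array, where it is high. Of the 11 list genes on the array, OXT, PCSK2 and PRLR were under the floor on both arrays.

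The early pregnant array gave a value between or beside the others for these genes. Across the non-pregnant, early pregnant and late pregnant arrays, PCSK1 read 65.5, 4848.2 and 7916.8, and RLN2 read 11028.8, 31899.6 and 29660.1. PTGFR read 6982.2, 14853.2 and 16721.2 over the same stages. For these 3 genes the early pregnant value lay within 2-fold of the late pregnant one. AGT, at 314.5, 1045.1 and 1788.9, was likewise within 2-fold between early and late pregnancy. The early over non-pregnant comparison shares the non-pregnant array, and its list median was 1.05, with 5 of 8 genes higher against 2.01% of all genes.

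Genes of progesterone synthesis differed little by their brightest probe sets. STAR, which carries cholesterol into mitochondria, read 25986.8 in the late pregnant and 28845.6 in the non-pregnant ovary. CYP11A1, which cuts the cholesterol side chain, read 11226.9 in the late pregnant and 10664.1 in the non-pregnant ovary. HSD3B1, which completes progesterone, read 16394.3 in late pregnancy against 19261.4 in the non-pregnant ovary. All 12 measured genes of the list had log2 ratios between -0.53 and 0.49, and 0 were called in either direction. Other probe sets differed for some genes. That of HSD3B1 had a log2 ratio of 0.87 against -0.23 for the brightest. The 4 other probe sets of NR5A2 spanned -0.39 to 1.18, with 0.14 for its brightest. The list median of -0.07 was near that of all genes, and scaling to the hybridisation controls turned it to 0.45.

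Supply of cholesterol varied gene by gene. NPC1, which exports cholesterol from lysosomes, read 5411.7 in the late pregnant and 2028.5 in the non-pregnant ovary, 2.67-fold higher. APOE, a lipoprotein ligand, read 2484.4 in the late pregnant and 5379.7 in the non-pregnant ovary, 2.17-fold lower, and LRP8, a receptor that binds it, read 2545.7 in the late pregnant against 5140.0 in the non-pregnant ovary, 2.02-fold lower. SCARB1, the receptor that takes cholesterol from high-density lipoprotein, had a log2 ratio of 0.67. Thus 1 of 11 measured genes of uptake and storage was higher and 2 were lower, against 2.8% and 3.35% of all genes. In the synthesis pathway SQLE, squalene epoxidase, read 3320.0 in late pregnancy and 1600.3 in the non-pregnant ovary. SC5D, a late-acting desaturase, read 4643.0 in the late pregnant against 2111.0 in the non-pregnant ovary. These were the only 2 of 10 measured synthesis genes called, both higher, against 2.8% of all genes, and the list median was -0.04.

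Oestrogen metabolism showed its largest ratios among enzymes that oxidise steroids. HSD17B2, which converts oestradiol to the weaker oestrone, read 400.4 in the late pregnant ovary and 37.0, under the floor, in the non-pregnant ovary, at least 4.90-fold higher. Its other probe set gave a log2 ratio of 0.36. HSD17B4, a peroxisomal enzyme of fatty acid oxidation that also oxidises oestradiol, read 10225.9 in the late pregnant and 2984.3 in the non-pregnant ovary, 3.43-fold higher. CYP19A3, an aromatase that makes oestrogen, read 7197.7 in late pregnancy and 8690.6 in the non-pregnant ovary, a log2 ratio of -0.27. HSD17B4 and HSD17B2 were the only 2 of 10 measured genes called, both higher, against 2.8% of all genes. HSD17B2 was measured only through the late pregnant array. Among receptors, ESR1, the oestrogen receptor alpha gene, was the only 1 of 9 measured genes called, against 2.8% of all genes higher. ESR1 read 231.4 in the late pregnant against 92.4, near the floor, in the non-pregnant ovary. Its lowest log2 ratio across the settings tried was 0.0. The progesterone receptor gene PGR read 128.1 in the late pregnant and 127.9 in the non-pregnant ovary.

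Follicle and oocyte genes were mostly level or lower. Of 16 measured follicle genes 0 were higher and 1 was lower, against 2.8% and 3.35% of all genes. The lower gene was AMHR2, the receptor of anti-Mullerian hormone, at 137.9 in late pregnancy and 277.0 in the non-pregnant ovary. AMH itself had a log2 ratio of 0.81, at 395.4 in the late pregnant against 225.5 in the non-pregnant ovary. Of 7 measured oocyte genes 2 were lower, against 3.35% of all genes. ZP3, a protein of the egg coat, read 131.4 in the late pregnant and 295.2 in the non-pregnant ovary, and H1FOO, the linker histone of oocytes, read 124.4 in the late pregnant against 274.3 in the non-pregnant ovary. These signals lie near the floor. The oocyte list median was -0.68.

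Genes for peptides and enzymes that act in blood and at the cell surface gave several of the largest ratios. HP, haptoglobin, a plasma protein that binds free haemoglobin, read 14135.7 in the late pregnant and 671.7 in the non-pregnant ovary, 21.0-fold higher. DPP4, a surface peptidase that trims chemokines and peptide hormones, read 2314.0 on the late pregnant array and 172.4 on the non-pregnant array, 13.4-fold higher. KNG1, the kininogen from which bradykinin is cut, read 828.8 in the late pregnant and 68.1, under the floor, in the non-pregnant ovary, and was at least 10.1-fold higher, with a log2 ratio of 2.46 for its other probe set. ENPEP, an aminopeptidase that shortens angiotensin II, read 609.6 in late pregnancy against 120.8 in the non-pregnant ovary, 5.05-fold higher. Counting AGT, 4 of the 9 measured genes of the kinin, angiotensin and ectopeptidase list were higher and 0 were lower, against 2.8% and 3.35% of all genes. KNG1 was measured only through the late pregnant array. The other 5 were below 2-fold, among them ANPEP at a log2 ratio of -0.94, and the list median was 0.13.

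HP, DPP4 and KNG1 were much brighter on the late than on the early pregnant array. From the non-pregnant through the early to the late pregnant array, HP read 671.7, 3128.8 and 14135.7. DPP4 read 172.4, 485.8 and 2314.0, and KNG1 read 68.1, 188.3 and 828.8. Each of these 3 genes was brighter in late than in early pregnancy by more than 2-fold, whereas RLN2 was not. In the late over early comparison, which shares the late pregnant array, 1.31% of all genes were higher and 2.37% lower.

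Enzymes of amino acid and retinoid metabolism included further large ratios. TDH, the mitochondrial dehydrogenase that starts threonine breakdown, read 1712.7 in the late pregnant ovary and 109.9 in the non-pregnant ovary, 15.6-fold higher. Its early pregnant value was 248.9. GCAT, which takes the next step from threonine to glycine, read 177.0 in the late pregnant and 154.3 in the non-pregnant ovary, a log2 ratio of 0.20. SHMT1, which interconverts serine and glycine, was 3.59-fold lower, at 200.5 in late pregnancy against 719.1 in the non-pregnant ovary. TDH was thus the only higher gene and SHMT1 the only lower gene among 11 measured in the list, against 2.8% and 3.35% of all genes. ALDH1A1, which makes retinoic acid from retinal, read 1546.9 in the late pregnant and 211.1 in the non-pregnant ovary, 7.33-fold higher, and its early pregnant value of 1786.4 was as bright as the late one. ADHFE1, a mitochondrial hydroxyacid transhydrogenase, read 786.4 in late pregnancy and 125.4 in the non-pregnant ovary, 6.27-fold higher.

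Lipid handling genes went both ways, also within the fatty acid binding family. LPL, the lipase that frees fatty acids from circulating triglyceride, read 1781.0 in the late pregnant and 154.2 in the non-pregnant ovary, 11.5-fold higher. ACSL1, which activates fatty acids, read 841.3 in the late pregnant against 290.2 in the non-pregnant ovary, 2.90-fold higher, and DGAT2, which makes triglyceride, read 256.5 in the late pregnant against 5.5 in the non-pregnant ovary, at least 3.14-fold higher. Of the fatty acid binding proteins, FABP5 read 6252.5 in late pregnancy and 2856.5 in the non-pregnant ovary and was 2.19-fold higher. FABP3 was 4.61-fold lower, at 4328.5 in the late pregnant against 19934.2 in the non-pregnant ovary, and FABP4, an adipocyte and macrophage protein, was 3.83-fold lower, at 110.7 in the late pregnant against 424.3 in the non-pregnant ovary. The adipocyte markers ADIPOQ and LEP were under the floor on both arrays. Of 20 measured genes 5 were higher and 2 lower, against 2.8% and 3.35% of all genes, with a median of 0.49. DGAT2 was measured only through the late pregnant array.

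**Figure D2:**
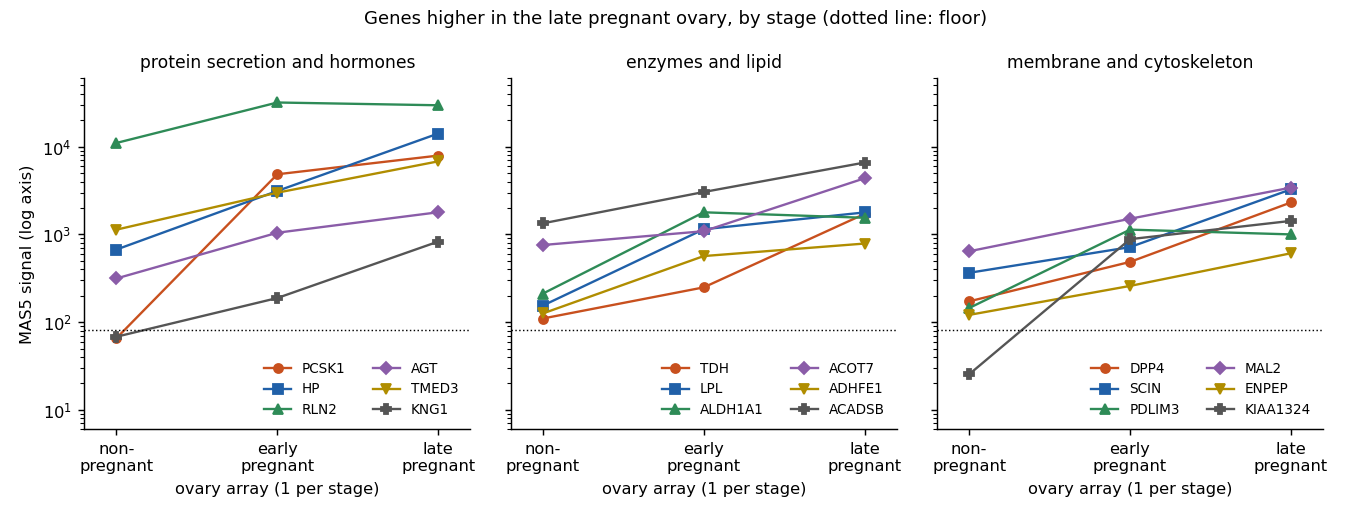
MAS5 signal (vertical log axis) of 18 genes higher in the late pregnant ovary on the non-pregnant, early pregnant and late pregnant ovary arrays, 1 array per stage; the dotted line is the floor of 81.7. PCSK1, RLN2, ALDH1A1 and PDLIM3 were within 2-fold of the late pregnant value on the early pregnant array, whereas HP, TDH, DPP4, SCIN and ACOT7 were more than 2-fold brighter on the late than on the early pregnant array.

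Cytoskeletal, trafficking and signalling genes filled the rest of the highest ratios. SCIN, an actin-severing protein of secretory cells, read 3264.1 in the late pregnant and 364.9 in the non-pregnant ovary, 8.95-fold higher. PDLIM3, an actinin-binding protein of muscle, was 6.91-fold higher at 999.9 in the late pregnant against 144.7 in the non-pregnant ovary, while 0 of the other 18 measured smooth muscle genes were called. TMED3, a cargo receptor of the early secretory pathway, read 6806.5 in the late pregnant and 1132.5 in the non-pregnant ovary, 6.01-fold higher.

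MAL2, a membrane protein of apical transport, read 3416.3 in late pregnancy against 641.8 in the non-pregnant ovary, 5.32-fold higher. KIAA1324, an endosomal and lysosomal membrane protein, read 1425.8 in late pregnancy and 25.4 in the non-pregnant ovary, at least 17.5-fold higher. RASGRP1, an activator of Ras, read 600.8 in the late pregnant against 64.5 in the non-pregnant ovary, at least 7.35-fold higher, and OPRM1, the mu opioid receptor, read 514.5 in the late pregnant against 12.3 in the non-pregnant ovary, at least 6.30-fold higher. Both of these were also dimmer on the early pregnant array, at 198.1 for RASGRP1 and 19 for OPRM1. PLBD1, a phospholipase B-like protein, read 22022.7 in the late pregnant and 3163.8 in the non-pregnant ovary, 6.96-fold higher, but its 3 other probe sets spanned log2 ratios of 0.34 to 3.13.

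Vessel and stress lists held a few called genes in an otherwise level background. TEK, the angiopoietin receptor, read 973.3 in late pregnancy and 357.8 in the non-pregnant ovary, 2.72-fold higher. With VEGFA it made 2 of 19 measured endothelial genes higher, against 2.8% of all genes. The endothelial marker sum was 3736.1 in the late pregnant and 3410.5 in the non-pregnant ovary. GPX3, a secreted glutathione peroxidase, read 19898.8 in the late pregnant against 9682.1 in the non-pregnant ovary, and NQO1, a quinone reductase, read 3410.0 in the late pregnant against 1619.5 in the non-pregnant ovary. They were the only 2 of 26 measured antioxidant genes called, both higher, against 2.8% of all genes. DNAJB9, a chaperone partner of the endoplasmic reticulum, was 2.84-fold higher. It was the only 1 of 22 secretory pathway genes called, against 2.8% of all genes higher. Of 22 measured cell cycle genes 0 were called, with a median of 0.19.

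Most of the lowest ratios in the late pregnant ovary belonged to interferon-induced genes. All 25 measured genes of the list had a lower signal than in the non-pregnant ovary, 21 of them 2-fold or more, against 3.35% of all genes. Of the called genes, RSAD2, IRF7 and ISG20 were measured only through the non-pregnant array, where they are high. RSAD2 was also given with the comparison. The list median was -1.80. Across the settings tried, 14 to 22 of its genes were called lower, the smallest count being with arrays scaled to the hybridisation controls.

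RSAD2, also called viperin, an antiviral enzyme, read 75.1, under the floor, in the late pregnant ovary and 2412.1 in the non-pregnant ovary, at least 29.5-fold lower. MX1, a GTPase that blocks viral replication, read 453.2 in the late pregnant and 9325.1 in the non-pregnant ovary, 20.6-fold lower. ISG15, a ubiquitin-like protein, read 467.4 in late pregnancy against 6401.0 in the non-pregnant ovary, 13.7-fold lower. All 3 were bright in the non-pregnant ovary and dim in the late pregnant one.

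The IFIT family, RNA-binding antiviral proteins, was lower throughout. IFIT3 read 390.1 in the late pregnant and 4973.0 in the non-pregnant ovary, 12.7-fold lower, IFIT1 read 365.4 in the late pregnant and 4122.7 in the non-pregnant ovary, 11.3-fold lower, and IFIT2 read 263.0 in the late pregnant and 1236.1 in the non-pregnant ovary, 4.70-fold lower. Their other probe sets, 2 for IFIT1 and 2 for IFIT2, were all lower too, with log2 ratios between -3.13 and -1.77. XAF1, a pro-apoptotic protein, read 94.0 in late pregnancy against 1067.6 in the non-pregnant ovary, 11.4-fold lower. USP18, the protease that removes ISG15 from proteins, was 5.99-fold lower, at 283.7 in the late pregnant against 1699.1 in the non-pregnant ovary. PLAC8 was 8.46-fold lower, at 333.8 in the late pregnant against 2823.4 in the non-pregnant ovary. The members closest to equality, named after their values were seen, were TRIM26 and IFI35, at log2 ratios of -0.28 and -0.42.

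Among lowest genes outside the list, several are also known as interferon-induced. ISG12(A) read 3235.8 in late pregnancy and 15450.2 in the non-pregnant ovary, 4.77-fold lower. DDX60, an antiviral helicase, read 60.4 in the late pregnant against 438.8 in the non-pregnant ovary, at least 5.37-fold lower. ZBP1, a sensor of nucleic acids, read 56.2 in the late pregnant and 433.0 in the non-pregnant ovary, at least 5.30-fold lower. DTX3L, a ubiquitin ligase, read 76.6 in the late pregnant against 283.4 in the non-pregnant ovary, at least 3.47-fold lower. In all 4 the late pregnant signal was the dimmer.

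The list of interferon receptors and signalling genes held no calls. Of its 11 measured genes 0 were called in either direction, and the median was -0.09. STAT2 and IRF9, signalling factors that the interferon-induced list holds instead, were 2.26-fold and 4.16-fold lower in the late pregnant ovary. The receptor chain genes IFNAR1 and IFNAR2 had log2 ratios of -0.44 and -0.57, IRF3, a transcription factor that induces interferon, had -0.56, and MAVS, an adaptor of RNA sensing, had 0.78. The interferon genes on the array, IFNA1, IFNB1 and IFNG, were under the floor in both ovaries. SOCS1, a feedback inhibitor of the receptors, read 174.0 in the late pregnant and 116.9 in the non-pregnant ovary.

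Early pregnancy lay between the other stages for the leading genes. Over the non-pregnant, early and late pregnant arrays MX1 read 9325.1, 2155.5 and 453.2, ISG15 read 6401.0, 1871.7 and 467.4, and RSAD2 read 2412.1, 759.2 and 75.1. The list median was -0.999 for early over non-pregnant, with 12 of 25 genes lower against 2.47% of all genes. For late over early it was -1.09, with 12 of 23 lower against 2.37%. These comparisons share an array with the one described here. GBP1 and GBP2, guanylate-binding proteins named here after their values were seen, did not keep this order and were brightest in early pregnancy, at 2658.0 and 467.4. PML, named likewise, was dimmest in early pregnancy, at 59.7, under the floor, against 107.1 in late pregnancy.

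**Figure D3:**
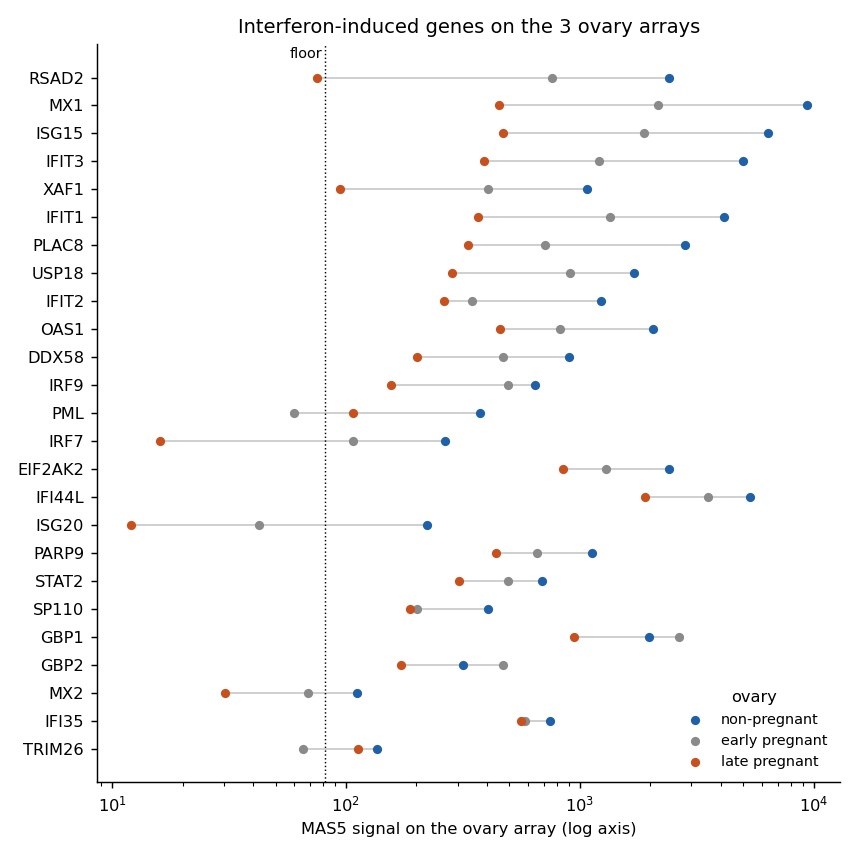
MAS5 signal (horizontal log axis) of the 25 measured interferon-induced genes on the non-pregnant (blue), early pregnant (grey) and late pregnant (orange) ovary arrays, ordered by the ratio of late pregnant to non-pregnant; the dotted line is the floor of 81.7. For every gene the late pregnant point lies to the left of the non-pregnant point.

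Immune cell genes were lower by smaller amounts. Of 18 measured macrophage and myeloid genes 8 were 2-fold or more lower and 1 was higher, against 3.35% and 2.8% of all genes, with a median of -0.90. CD53, a tetraspanin of leukocytes, read 606.3 in the late pregnant and 1518.0 in the non-pregnant ovary, 2.50-fold lower. CD86, a costimulatory ligand, read 122.8 in the late pregnant against 289.6 in the non-pregnant ovary, 2.36-fold lower, and FCER1G, an Fc receptor subunit, read 294.0 in the late pregnant against 687.0 in the non-pregnant ovary, 2.34-fold lower. TYROBP, an adaptor of myeloid receptors, was 2.24-fold lower. The exception was S100A12, a calcium-binding protein of neutrophils, at 381.6 in late pregnancy and 8.0 in the non-pregnant ovary, at least 4.67-fold higher. S100A12 was measured only through the late pregnant array.

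This list depended on scaling. With arrays scaled to the hybridisation controls its median was -0.41 and 0 of its genes were called lower. Summed macrophage markers read 1939.8 in the late pregnant and 3649.7 in the non-pregnant ovary, with all 4 on the array above the floor in both, and T cell markers summed to 364.9 in the late pregnant and 753.6 in the non-pregnant ovary. The T cell sum differed mostly through CD2, since CD3D read 101.1 in the late pregnant and 101.4 in the non-pregnant ovary and CD3E 151.7 in the late pregnant and 212.4 in the non-pregnant ovary. The macrophage markers moved in the same direction as the interferon-induced genes, and their part in that result was not tested. Among 13 measured lymphocyte genes 2 were lower and 2 higher, against 3.35% and 2.8% of all genes. Both higher genes, CCL5 and GNLY, were measured only through the late pregnant array. CD2, an adhesion receptor of T cells, read 112.1 in the late pregnant against 439.8 in the non-pregnant ovary, 3.92-fold lower, and GZMH, a granzyme, read 86.5 in the late pregnant against 211.9 in the non-pregnant ovary. CCL5, a chemokine, read 224.8 in late pregnancy and 76.1 in the non-pregnant ovary, at least 2.75-fold higher, and GNLY, a cytolytic protein, read 268.9 in the late pregnant against 18.0 in the non-pregnant ovary, at least 3.29-fold higher.

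Some chemokine genes and a receptor were lower. CXCL14 was 3.42-fold lower, at 435.8 in the late pregnant and 1489.3 in the non-pregnant ovary. CXCL13, which draws B cells, was 3.31-fold lower, and CXCR4, the receptor of CXCL12, was 2.48-fold lower, at 1077.5 in the late pregnant against 2667.6 in the non-pregnant ovary. With CCL5 as the 1 higher gene, 3 of 21 measured cytokine genes were lower, against 3.35% of all genes. Antigen presentation genes held 0 calls among 19 measured, with a median of -0.40 that scaling to the hybridisation controls turned to 0.11.

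Complement and acute phase genes went both ways, with 4 of 20 measured genes higher and 4 lower, against 2.8% and 3.35% of all genes. TF and C9 were measured only through the late pregnant array, and CFB, among the lower genes, only through the non-pregnant array. C1S, a protease of the first component, read 3798.0 in the late pregnant against 8812.8 in the non-pregnant ovary, 2.32-fold lower. C1R, its partner protease, read 2289.8 in the late pregnant and 4967.3 in the non-pregnant ovary, 2.17-fold lower. C2 was 3.09-fold lower, with a late pregnant signal of 83.0 near the floor. Besides HP, the higher genes were TF, transferrin, at 372.1 in the late pregnant against 5.9 in the non-pregnant ovary and at least 4.55-fold, C9 at 237.1 in the late pregnant against 8.9 in the non-pregnant ovary and at least 2.90-fold, and ITIH4 at 686.7 in the late pregnant against 267.4 in the non-pregnant ovary and 2.57-fold.

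Few genes of the fibrillar matrix were called. BGN, the proteoglycan biglycan, read 318.8 in the late pregnant and 965.1 in the non-pregnant ovary, 3.03-fold lower. LUM, the related proteoglycan lumican, read 1283.0 in the late pregnant against 574.6 in the non-pregnant ovary, 2.23-fold higher. They were the only called genes among 18 measured, against 2.8% of all genes higher and 3.35% lower. The list median of -0.47 became 0.05 under scaling to the hybridisation controls. Matrix proteases and their inhibitors had 3 of 11 genes lower, against 3.35% of all genes, and 0 higher. TIMP1, an inhibitor of matrix metalloproteinases, read 7203.4 in late pregnancy and 26057.8 in the non-pregnant ovary, 3.62-fold lower. MMP2, a gelatinase, was 2.32-fold lower and CTSK, a collagen-cutting cathepsin, 2.23-fold lower, and both were under 2-fold in at least 1 other setting. SPP1, osteopontin, which the epithelium list holds, was 3.79-fold lower, at 1750.6 in the late pregnant against 6637.3 in the non-pregnant ovary.

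Other low genes included MRO, a protein known from the developing mouse testis, at 7.5 in the late pregnant and 1336.9 in the non-pregnant ovary, at least 16.4-fold lower. BSP1 read 14 in the late pregnant against 581.6 in the non-pregnant ovary, at least 7.12-fold lower. AMBN, an enamel matrix protein, was 5.20-fold lower, at 198.8 in the late pregnant against 1033.0 in the non-pregnant ovary. DGKZ, a diacylglycerol kinase, was 4.88-fold lower with a late pregnant signal of 89.9 near the floor. JUN, an immediate early transcription factor, was 2.62-fold lower, at 1487.7 in late pregnancy against 3899.7 in the non-pregnant ovary, and the only 1 of 11 immediate early genes called. TNFSF10 and CASP1, genes of cell death that interferons also induce, were 2.86-fold and 2.59-fold lower, the only 2 of 12 apoptosis genes called. Over all genes 3.35% were lower.

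Lists of ribosomal protein, respiratory and glycolysis genes held few calls, and no value here was scaled to them. All 32 measured ribosomal protein genes had log2 ratios below 0, with a median of -0.38 and 0 called, and scaling to the hybridisation controls turned that median to 0.13. Oxidative phosphorylation genes had a median of -0.04 over 21 genes and glycolysis and hypoxia genes -0.03 over 20. VEGFA was the only called gene of the hypoxia list, against 2.8% of all genes higher.

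**Figure D4:**
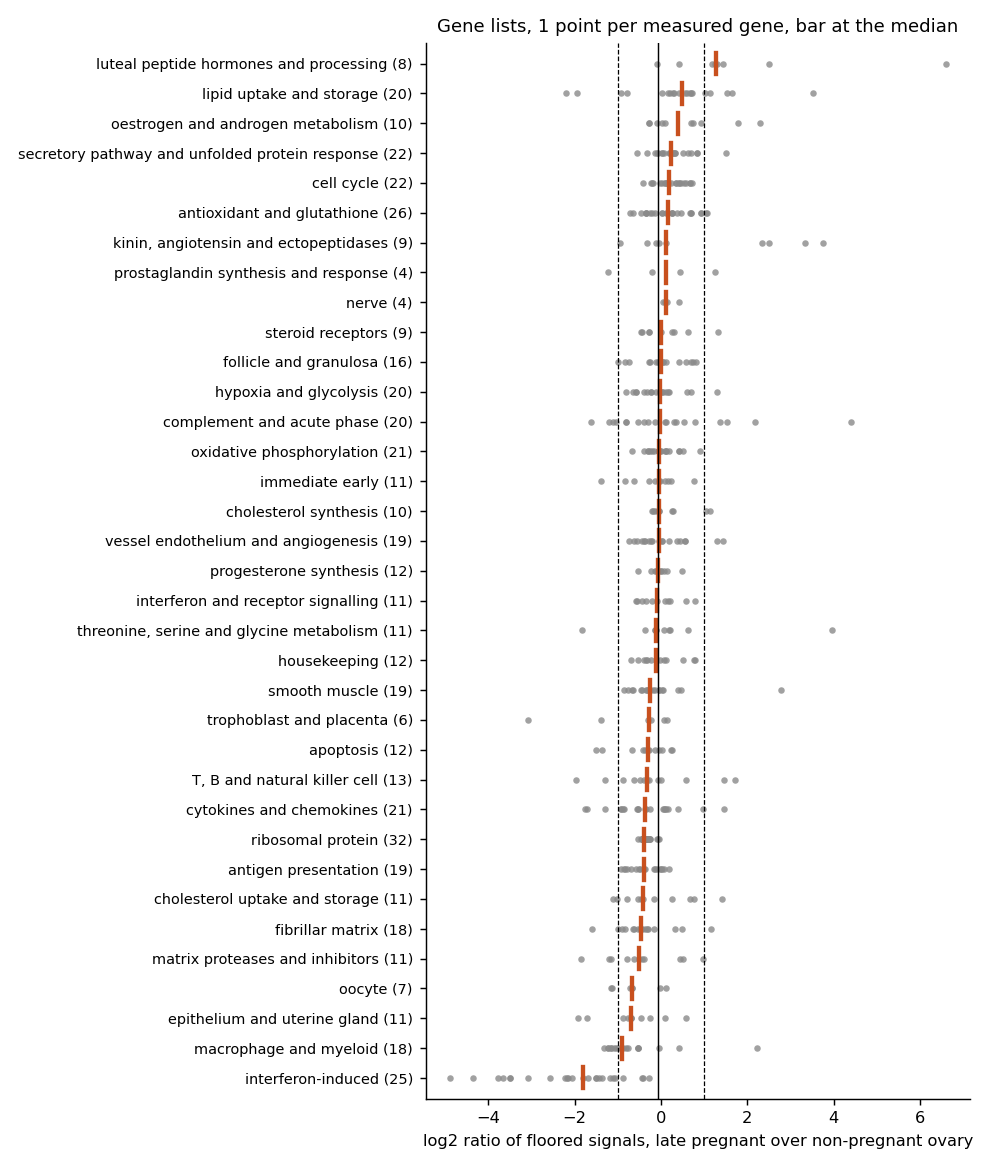
Log2 ratio of floored signals, late pregnant over non-pregnant ovary (horizontal axis), for each list with 4 or more measured genes (grey points, number in brackets), leaving out the 2 lists chosen after values were seen, with the list median (orange bar); the solid line is the median of all measured genes and the dashed lines mark 2-fold. The lists shown were themselves chosen with earlier results of these data known. Of the lists shown, the interferon-induced list has the lowest median, -1.80, and the luteal peptide list the highest, 1.27.

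The uterine arrays of the same stages allow the ovarian ratios to be set beside another tissue, possibly of the same sows. These arrays differ more from each other, with 11.3% of measured genes higher and 13.2% lower in late pregnancy. Trophoblast markers summed to 28578.4 on the late pregnant and 163.9 on the non-pregnant uterine array. PAG6 alone read 28500.2 on the late pregnant and 75.2 on the non-pregnant uterine array, while GCM1 read 78.2 and 88.7. Luteal markers summed to 16776.7 on the late pregnant and 591.5 on the non-pregnant uterine array. Of these 7 markers, 3 were under the floor on the late pregnant uterine array, RLN2 among them. The sums thus moved with stage there, though not every marker did, and their part in the ratios was not tested. Of 144 genes higher in the late pregnant ovary and measured in the uterine tissue, 44 were also higher there and 19 were lower. Of 172 genes lower in ovary, 43 were lower in the uterine tissue and 27 higher.

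Interferon-induced genes were lower in both tissues. In the uterine tissue 18 of 25 measured genes were 2-fold or more lower with late pregnancy, against 13.2% of all genes there, and the median was -1.51. MX1 had a log2 ratio of -2.72 there. RSAD2 and XAF1 were under the floor on the late pregnant uterine array, so that their log2 ratios, -2.16 and -3.20, are bounds. PLAC8, 8.46-fold lower in ovary, had a uterine log2 ratio of -0.52. Lymphocyte genes were also lower there, 11 of 14 measured, as were 14 of 20 antigen presentation genes. T cell markers summed to 216.9 on the late pregnant and 1667.5 on the non-pregnant uterine array, and B cell markers to 106.9 on the late pregnant and 6418.1 on the non-pregnant uterine array. The B cell sum differed through JCHAIN, at 96.6 on the late pregnant and 6346.9 on the non-pregnant uterine array. CD79B, the other B cell marker present, was under the floor on both. The part of these markers in the uterine ratios was not tested.

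Of the highest ovarian genes, HP had a uterine log2 ratio of at least 8.56, PLBD1 of 7.08 and DPP4 of 2.11, the same direction as in ovary. SCIN, at -0.61, was below 2-fold there. RLN2 was under the floor on the late pregnant uterine array and read 118.5 on the non-pregnant one. MRO, among the lowest genes in ovary, read 44.3, under the floor, on the late pregnant and 92.0 on the non-pregnant uterine array. ALDH1A1 and ESR1 went the other way, at -3.55 for ALDH1A1 and at most -3.47, a bound, for ESR1.

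**Figure D5:**
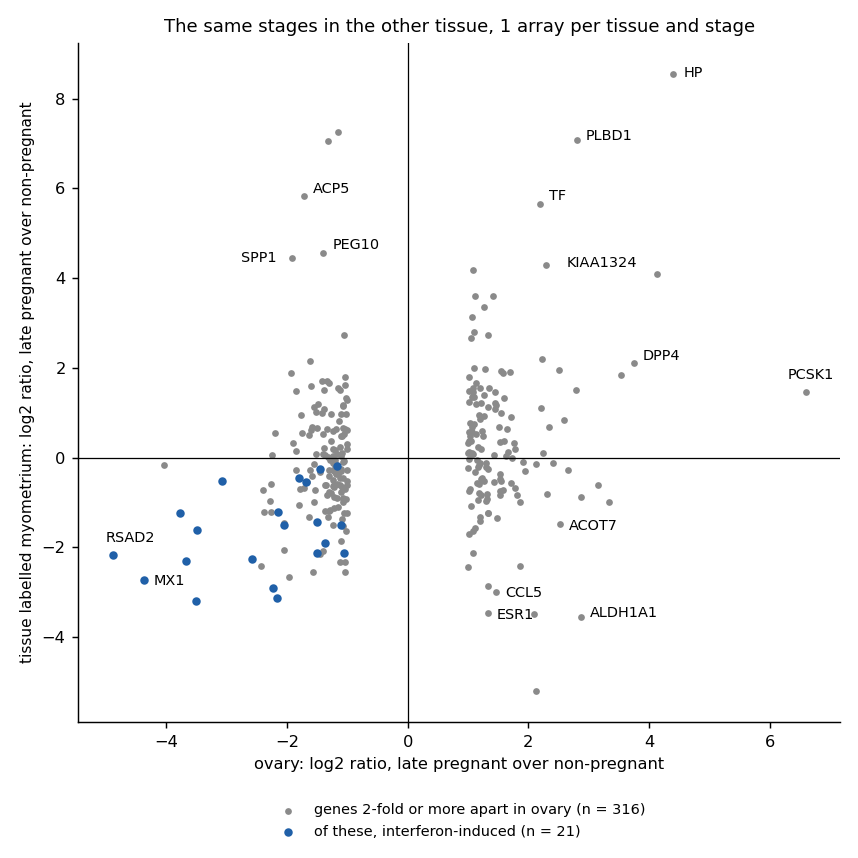
Log2 ratio, late pregnant over non-pregnant, in ovary (horizontal axis) and in the tissue labelled myometrium (vertical axis), both with floored signals, for 316 genes 2-fold or more apart in ovary and measured in both tissues (grey), with 21 interferon-induced genes in blue. The blue points all lie in the lower left, whereas ALDH1A1, ESR1, SPP1, ACP5 and PEG10 have opposite signs in the 2 tissues.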

How the data were processed

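Total RNA of sow ovary and uterine tissue was extracted with Trizol and hybridised to Affymetrix arrays, per the labels' protocols. The deposited values are MAS5 signals, per the submitters' processing notes, that is linear intensity values in which the authors summarised each probe set. The sources used here give neither version nor settings of MAS5. After trimming 2% of probe sets at each end every array had a mean of 500.1 in the deposited table, so arrays had been scaled to a common mean, which hides any change in total RNA per cell.

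Of 24123 probe sets 124 were controls, leaving 23999. Signals under the floor of 81.7, the 40th percentile over 6 arrays, were raised to it and log2 ratios taken. A platform annotation table gave 10069 probe sets 1 symbol, 198 several and 13732 none, and those with 1 symbol other than a locus number, 9774 probe sets, named 6567 genes. The brightest probe set by mean over 6 arrays stood for a gene. With 1 array per group, the comparison has no test, and the number of arrays limits the precision.

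The comparison, its gene lists and the rule for named genes were chosen with earlier results of these data known. The rule took HP, DPP4, TDH and RSAD2, the 14 highest and 14 lowest genes among those with both signals above the floor, up to 6 per direction by bound, up to 6 members of each of 38 lists and genes that define the tissue. ADIPOQ, C1R, CFB, GBP1, GBP2, IFI35, IFNA1, IFNB1, IFNG, INSL3, IRF7, IRF9, ISG20, PML, STAT2, CD3D, CD3E, CD79B, JCHAIN, GCM1, PAG6, LEP, OXT, PCSK2, PGR, PRLR, TRIM26, ALB, APOA2, FGB, SERPINA1 and TTR were named outside the rule, after values were seen. Lists of 4 or more measured genes got a median. A list of fatty acid, branched-chain and peroxisomal enzymes and one of liver plasma proteins were chosen after values were seen.

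Alternatives were a floor at the 25th (33.7) or 60th (246.2) percentile, no floor with a pseudocount of 16, quantile normalization, centring, no filter, the filter on both arrays, averaging of probe sets per gene and, chosen after seeing the data, scaling to the hybridisation controls. Promoter and protein sequences were not analysed here, so the planned description of a promoter motif was not made. Python 3.11.15, numpy 2.4.6, pandas 2.3.3 and scipy 1.17.1 were used, and the counting of calls was tested on simulated data.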

Additional observations from a re-analysis of the deposited data

Results flagged for a closer look

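Among genes named by rule, 12 pointed opposite ways in ovary and the tissue labelled myometrium, by 2-fold or more in each. These are ratios of late pregnant to non-pregnant signal. Over all measured genes, 19 were 2-fold or more higher in ovary and lower in the uterine tissue, and 27 went the reverse way. Each direction rests on 1 array per tissue and stage, and the difference between tissues was not tested.

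Of these named genes, those higher in the late pregnant ovary and lower in the uterine tissue were enzymes, a receptor and a chemokine. ACOT7, an acyl-CoA thioesterase, had log2 ratios of 2.53 in ovary and -1.48 in uterine tissue. ALDH1A1, a retinal dehydrogenase, had 2.87 and -3.55. ESR1, the oestrogen receptor alpha gene, had 1.32 and -3.47, and CCL5 had 1.46 and -2.98. The uterine value of ESR1 and the ovarian value of CCL5 are bounds, since 1 array was under the floor.

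Lower in the late pregnant ovary and higher in the uterine tissue were 8 of the genes named by rule. ACP5, the acid phosphatase known in pig uterus as uteroferrin, had log2 ratios of -1.72 in ovary and 5.83 in uterine tissue. SPP1, osteopontin, had -1.92 and 4.44, and PEG10, an imprinted gene of the placenta, had -1.40 and 4.56. FABP4 had -1.94 and 1.90, the uterine value being a bound, TIMP1 -1.85 and 1.49, BGN -1.60 and 1.60, ALAS2, which starts haem synthesis in red cells, -1.38 and 1.52, and APOE -1.11 and 1.51. Trophoblast markers summed to 28578.4 on the late pregnant and 163.9 on the non-pregnant uterine array. The rise came through PAG6, and the part of these markers in these ratios was not tested.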

How the results depend on the processing

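Scaling to the hybridisation controls, the alternative chosen after seeing the data, turned 19 of the 24 list medians below 0 to values above 0. The 439 higher and 549 lower probe sets became 269 and 198 with the floor at the 60th percentile and 1595 and 134 with arrays scaled to the hybridisation controls, which moves the median ratio by 0.50. Lower probe sets numbered 1324 with the floor at the 25th percentile and 848 with a pseudocount of 16. The share of higher among called probe sets was 44.4%, and it was 33.0% with the lower floor, 57.6% with the higher floor, 37.5% with the pseudocount, 52.7% after quantile normalization, 52.6% after centring and 92.2% with control scaling. Under control scaling the list medians were 1.79 for luteal peptides, -1.41 for interferon-induced genes, -0.41 for macrophage genes, 1.01 for lipid genes and 0.94 for fatty acid and branched-chain oxidation, and the counts were 0 macrophage genes lower, 10 lipid genes higher and 23 fatty acid and branched-chain genes higher. Macrophage genes called lower numbered 5 with the higher floor. Named genes were not run with no filter or with the filter on both arrays. The latter would leave out genes under the floor on either array. Of 101 named genes past 2-fold, 59 stayed past it in the same direction under all settings run for single genes, 37 higher and 22 lower. The others were AFM, ALAS2, AMHR2, APOE, C1S, C2, C9, CASP1, CCL5, CD2, CD53, CD86, CTSK, CXCL13, CXCR4, DDX60, DGAT2, DGKZ, DTX3L, ESR1, FABP4, FCER1G, GNLY, GZMH, H1FOO, HBM, HSD17B2, JUN, LAPTM5, LRP8, MMP2, ORM1, PEG10, PTGDS, S100A12, SQLE, TF, TNFSF10, TYROBP, VEGFA, ZBP1 and ZP3. No paired analysis was possible because each group has 1 array. The arrays bear on 2 ovaries or pools of unknown make-up, so nothing here measures the spread between sows.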

Other observations

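Enzymes that burn fatty acids and branched-chain amino acids, and peroxisomal proteins, a list put together after values were seen, were mostly brighter in the late pregnant ovary. Of 49 measured genes 41 had log2 ratios above 0, 8 passed 2-fold higher and 0 passed it lower, with a median of 0.42. ACOT7, which hydrolyses acyl-CoA, read 4365.0 in late pregnancy and 756.5 in the non-pregnant ovary, 5.77-fold higher. ACADSB, a dehydrogenase of short branched acyl-CoA, read 6596.0 in the late pregnant against 1336.9 in the non-pregnant ovary, 4.93-fold higher, and its other probe set gave a log2 ratio of 2.4. PEX3, which starts peroxisome membrane assembly, read 1248.0 in the late pregnant and 333.4 in the non-pregnant ovary, 3.74-fold higher. IVD, the dehydrogenase of leucine breakdown, read 2781.9 in the late pregnant against 808.3 in the non-pregnant ovary, 3.44-fold higher, and its 3 other probe sets spanned log2 ratios of 0.71 to 1.3. ECHDC2, an enoyl-CoA hydratase-like protein, read 1857.5 in the late pregnant against 589.3 in the non-pregnant ovary, 3.15-fold higher. As background, 2.8% of all measured genes were higher.

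A list of plasma proteins known from liver, also chosen after values were seen, had 24 of its 37 genes on the array under the floor in both ovaries. Of the 13 measured, 7 were higher and 2 lower, with KNG1, TF, C9 and AFM measured only through the late pregnant array. The median of 1.36 was 0.0 with no filter on low signals. Besides HP, KNG1, AGT, TF, C9 and ITIH4, the higher gene was AFM, a vitamin E-binding protein, at 417.5 in the late pregnant and 48.9, under the floor, in the non-pregnant ovary, at least 5.11-fold higher. ORM1 was the lower extreme, at 136.5 in the late pregnant against 491.4 in the non-pregnant ovary, but its other probe set had a log2 ratio of 0.49. The liver proteins ALB, TTR, SERPINA1, APOA2 and FGB were under the floor on both arrays.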
